A study of Homo sapiens with 6 samples.

Results

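The genes described are EGR1, EGR2, EGR3 and EGR4, which encode the EGR transcription factors, and NAB1 and NAB2, which encode corepressors that act through EGR proteins. They are 6 of the 20033 protein-coding genes of the annotation. They were selected on measured values: a peak near EGR2 with a very high score was present in the list from DMSO-treated cells and had no counterpart in the list from MC2580-treated cells, and the gene family was then taken as a whole. For each gene, all peaks overlapping the gene span extended by 100 kb on each side, called the window here, were collected. The windows held 18 of the 21401 peaks of the DMSO list and 6 of the 13233 peaks of the MC2580 list. The position and score of the EGR2 peak and its absence from the other list are therefore given as a description only.

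The study mapped GSE1, a protein that associates with the histone demethylase LSD1, on the chromatin of NB4 cells, a human acute promyelocytic leukemia line, and asked how an LSD1 inhibitor changes its binding. The 6 libraries were 3 ChIPs with an antibody against the V5 tag and their 3 inputs, 1 library for each group. Cells of 2 groups carried the lentiviral vector pLEX_307-GSE1, which adds V5-tagged GSE1 (transcript variant 2) to the gene the cells already have, and had 24 h of either 2 µM MC2580 or DMSO. The third group carried the empty vector (EV), with no treatment listed for it, and its ChIP served as background for both lists. The peaks thus show tagged GSE1 made from an added construct. The lists hold no expression values, so the identity of the cells was not checked, and whether any of the 6 genes was transcribed was not analysed here. There was no replicate error, the sequencing depth was unknown, and no difference between the lists was tested.

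EGR factors are zinc finger proteins of the immediate early class, whose genes are switched on within minutes of a growth factor or stress signal, largely through SRF and its ELK partners bound at CArG boxes of their promoters. They bind a GC-rich site. NAB1 and NAB2 have no DNA-binding domain of their own and act through EGR proteins, and NAB2 works with CHD4 of the NuRD complex. EGR1 and EGR2 with NAB proteins are known in myeloid cells for favouring the macrophage over the neutrophil fate, in part by repressing GFI1.

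The sequences at the peaks on which the description turns are shown first. They are the 300 bp at the centres of the strongest EGR2 peak and of the peaks nearest to the TSSs of EGR2 and NAB2, the 300 bp EGR2 promoter (RefSeq, GRCh38.p14) and the centre of an MC2580 peak that lies within a DMSO peak of the NAB2 window. Each is written 5′ to 3′ on the strand given. Capitals mark the words found among the 7 that were searched on both strands: GCGTGGGCG for EGR, TGTGGTTT for RUNX, GAGGAAGT for PU.1, TGANTCA for AP-1, TTGCNNAA for C/EBP, TAAATCAC for GFI1 and the CArG box of SRF. Words were counted separately where they overlapped.
EGR2, strongest peak, chr10:62853326-62853625 (+): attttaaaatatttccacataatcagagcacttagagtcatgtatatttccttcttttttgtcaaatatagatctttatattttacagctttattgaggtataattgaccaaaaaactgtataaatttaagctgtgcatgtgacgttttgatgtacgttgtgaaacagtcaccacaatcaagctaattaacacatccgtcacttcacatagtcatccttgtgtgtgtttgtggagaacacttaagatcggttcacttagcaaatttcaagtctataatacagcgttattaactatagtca
EGR2, peak near its TSS, chr10:62816907-62817206 (+): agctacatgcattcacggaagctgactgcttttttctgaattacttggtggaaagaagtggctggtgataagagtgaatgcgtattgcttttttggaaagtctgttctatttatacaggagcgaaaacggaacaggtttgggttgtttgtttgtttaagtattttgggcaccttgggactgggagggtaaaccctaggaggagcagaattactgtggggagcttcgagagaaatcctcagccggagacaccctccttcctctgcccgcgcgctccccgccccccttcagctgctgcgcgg
EGR2, promoter, chr10:62816317-62816616 (-): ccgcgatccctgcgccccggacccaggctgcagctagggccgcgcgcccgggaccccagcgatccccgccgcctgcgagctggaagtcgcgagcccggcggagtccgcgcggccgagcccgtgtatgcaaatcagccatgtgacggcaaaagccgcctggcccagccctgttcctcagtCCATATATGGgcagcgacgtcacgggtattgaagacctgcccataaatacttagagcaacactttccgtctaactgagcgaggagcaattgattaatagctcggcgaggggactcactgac
NAB2, peak near its TSS, chr12:57089784-57090083 (+): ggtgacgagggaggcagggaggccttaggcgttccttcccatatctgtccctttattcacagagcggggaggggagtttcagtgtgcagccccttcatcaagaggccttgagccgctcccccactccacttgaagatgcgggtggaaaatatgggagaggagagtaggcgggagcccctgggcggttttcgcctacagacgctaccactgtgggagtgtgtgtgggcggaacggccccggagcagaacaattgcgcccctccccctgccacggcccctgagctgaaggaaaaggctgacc
STAT6 in the NAB2 window, MC2580 peak inside a DMSO peak, chr12:57112059-57112358 (+): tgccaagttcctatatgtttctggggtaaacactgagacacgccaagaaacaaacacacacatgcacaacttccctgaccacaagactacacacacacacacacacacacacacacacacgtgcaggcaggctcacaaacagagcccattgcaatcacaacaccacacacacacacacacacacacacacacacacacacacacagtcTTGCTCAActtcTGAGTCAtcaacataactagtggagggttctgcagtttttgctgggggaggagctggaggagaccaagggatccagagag
The centre of the strongest EGR2 peak was rich in A and T and held none of the words. The peak centres near the TSSs of EGR2 and NAB2 held none either. The EGR2 promoter of the canonical TSS held 1 CArG box, and the centre in STAT6 held an AP-1 and a C/EBP word close together beside a run of CA repeats.

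DMSO peaks were found in the windows of 4 of the 6 genes (EGR2, EGR3, NAB1 and NAB2), and 60.0% of all protein-coding genes had a DMSO peak in such a window. MC2580 peaks were found for 3 of the 6 (EGR3, EGR4 and NAB2), against 36.6% of all genes. EGR1 had a peak of neither list, as did 38.3% of all genes. Having a peak in the window was thus common for any gene, and the 6 genes did not stand apart by it. The score of a peak, which the peak caller derives from its p-value and which is 50 at the calling threshold, had a median over the whole list of 91.08 in DMSO and 78.1 in MC2580. Most peaks in the windows were weak: 12 of the 18 DMSO peaks and 5 of the 6 MC2580 peaks had a score under 100. All 24 lay within an annotated gene, but only 8 DMSO and 2 MC2580 peaks had a TSS of any of the 6 genes as the nearest coding TSS.

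**Figure D1:**
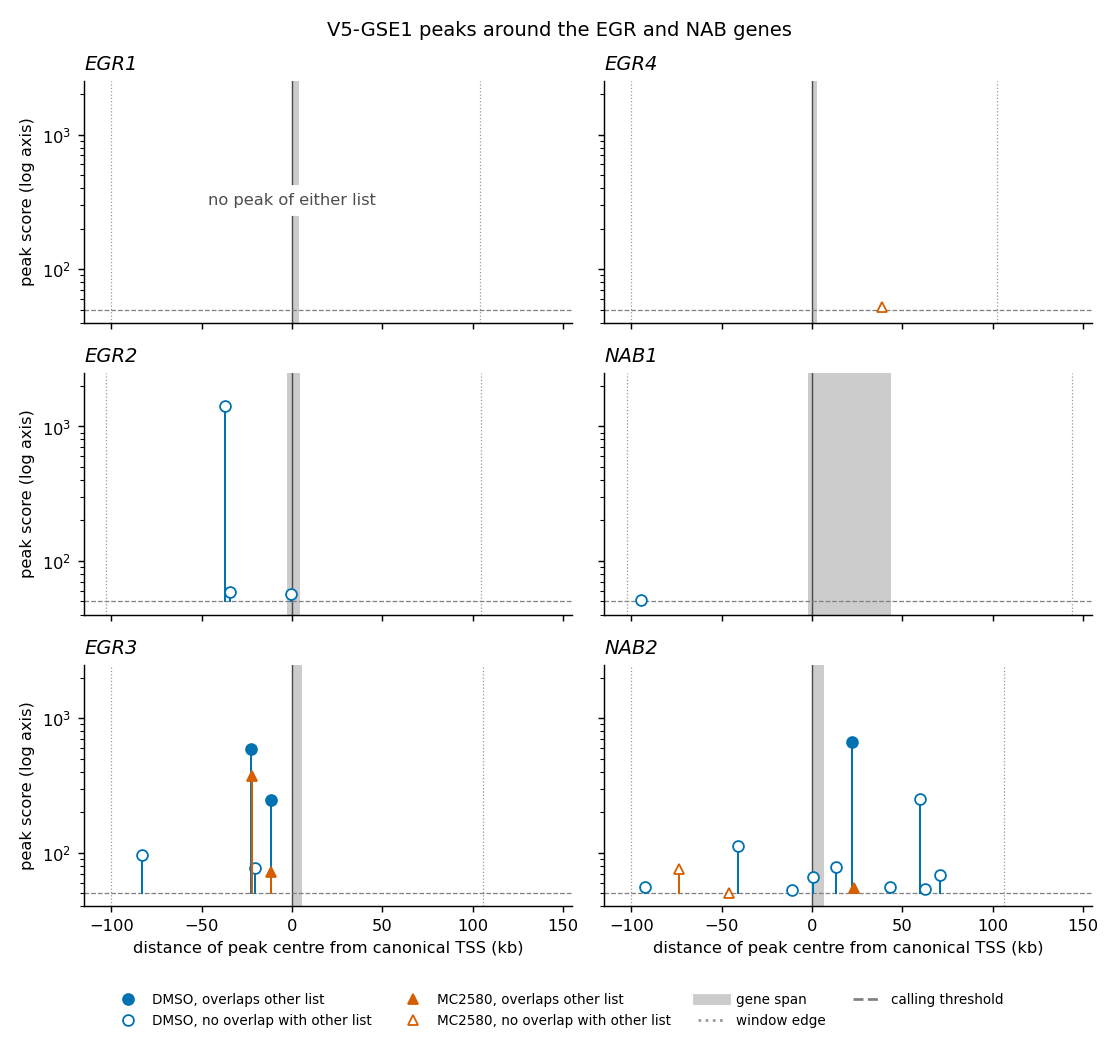
Peak score (log axis) against the distance of the peak centre from the canonical TSS in kb, for each of the 6 genes, with negative values upstream. Circles are DMSO peaks and triangles MC2580 peaks, filled where the peak overlaps a peak of the other list. The highest point, 1407.24, is an open DMSO circle at -37.1 kb of EGR2, and the EGR1 panel is empty.

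EGR2 (ENSG00000122877, chr10:62811996-62819167, minus strand) encodes the factor also known for its role in myelination. Its window held 3 DMSO peaks and no MC2580 peak. The strongest lay at chr10:62852512-62854440, with its centre at -37.1 kb from the canonical TSS and its nearer edge 33345 bp from any EGR2 TSS. It was 1929 bp wide, wider than 91.2% of DMSO peaks, and had a score of 1407.24, higher than 98.5% of the list. It lay in an intron of the non-coding gene ENSG00000289487, on the minus strand like EGR2, and the nearest coding TSS was that of EGR2. Of the 312 DMSO peaks that scored at least as high, this 1 alone had no MC2580 overlap, and of the 504 with a score of at least 1000 there were 7 without. The nearest MC2580 peak was 213.4 kb away. For DMSO peaks without an overlap the median of this distance was 17.2 kb, and 17.0% lay at least as far.

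The other EGR2 peaks were just past the calling threshold. A peak at chr10:62850501-62851148 lay at -34.5 kb with a score of 58.83, close to the strong peak. Another at chr10:62816743-62817371, with a score of 56.63, ended 377 bp from the canonical TSS. It fell within EGR2 and ENSG00000289487 without touching an exon, 250.5 kb from the nearest MC2580 peak. The promoter printed above did not overlap this peak. A DMSO peak no more than 3 kb from a TSS was found for 2 of the 6 genes, EGR2 and NAB2, and for 16.1% of all protein-coding genes. None of the 6 had an MC2580 peak at this distance, against 7.87% of all genes.

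The strong EGR2 peak also differed in sequence from the other peaks of the windows. Its 300 bp centre had a GC content of 31.7%, and 0.624% of the DMSO list was at or below this value. The other centres ranged from 39.3% at the neighbouring EGR2 peak to 63.7%, and the list had a median of 48.7%. Over its whole width the peak held 2 AP-1 words, both TGAATCA, at 465 and 649 bp from the centre, and 47.6% of windows of 1929 bp at DMSO peak centres held an AP-1 word. To see how often similar sequence recurs in the genome, the centre was searched by BLAST on chromosome 20 as a sample. There were 44 matches with a median identity of 72.5%, and 73.7% of its bases had at least 10 similar copies. Among 212 peaks taken evenly through the DMSO list, 19.8% had at least 10 copies at the centre. Within the windows, 2 DMSO peaks (11.1%) did, this one and the NAB1 peak. Only the 300 bp centres were searched, and 21 of the 24 centres had no base with at least 10 copies. The reads were kept only where they matched a single place in the genome. The part of repeated sequence in the score of this peak was not tested.

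**Figure D2:**
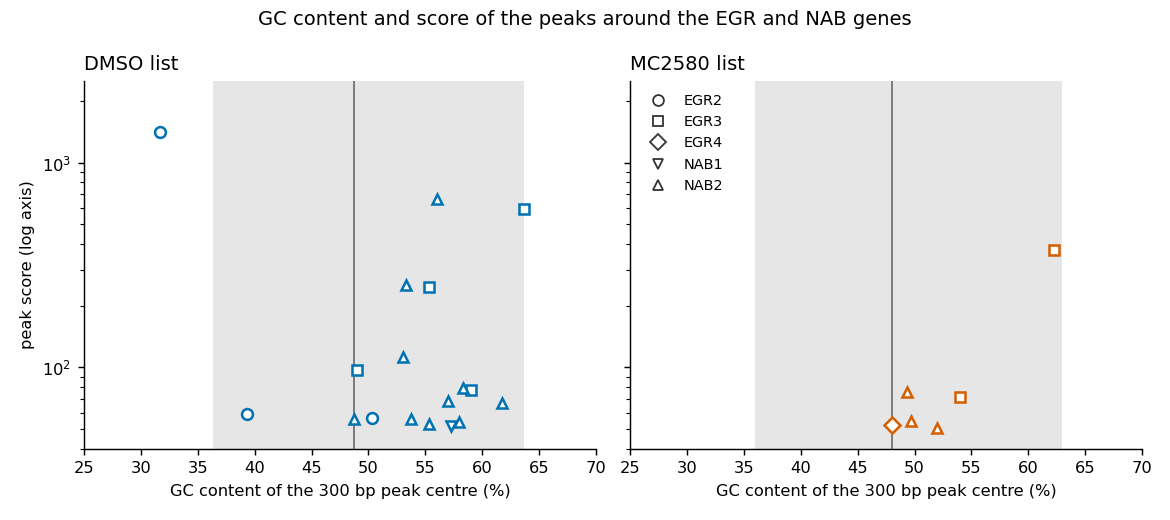
GC content in percent of the 300 bp peak centre against peak score (log axis) for the DMSO (left) and MC2580 (right) peaks in the windows, with the shape of the point giving the gene. The line is the median of the whole list and the grey band holds its 5th to 95th percentile. The strongest EGR2 peak lies left of the band at 31.7%, and the strongest EGR3 peak of each list lies at its right side, at 63.7% in DMSO and 62.3% in MC2580.

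By the highest score of each list in the window, the genes most like EGR2 were RER1, SOS2 and VCPKMT, leaving out genes whose window overlaps that of EGR2. Among those left out, ADO had the same highest values as EGR2, since its window holds the same peak of 1407.24. RER1, a protein that returns membrane proteins from the Golgi to the endoplasmic reticulum, had a DMSO peak of 1230.25 and no MC2580 peak in its window. This peak lay at the window edge, and an MC2580 peak just outside the window overlapped it. SOS2, an exchange factor of Ras, and VCPKMT, a lysine methyltransferase, shared a peak of 1099.53 that had no overlap. Likeness was measured over 2 values, 1 from each list. The pattern of DMSO peaks without an MC2580 peak was itself frequent, with 5044 protein-coding genes (25.2%). Their highest scores had a median of 101.3, and 7 of these genes reached 1000.

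EGR3 (ENSG00000179388, chr8:22687659-22693480, minus strand) encodes an EGR factor known from lymphocytes and muscle spindles. It had 4 DMSO and 2 MC2580 peaks, all upstream in the non-coding gene ENSG00000253125, and all had the EGR3 TSS as the nearest coding TSS. It was the only gene of the 6 with an MC2580 peak that scored over 100. At -22.4 kb, in PEBP4, a DMSO peak at chr8:22715277-22716434 scored 591.61 and an MC2580 peak at chr8:22715235-22716390 scored 375.1. Their overlap covered 96.2% of the DMSO peak, and the ratio of MC2580 to DMSO score was 0.634. At -11.6 kb a DMSO peak (chr8:22704386-22705704) scored 245.45, and the MC2580 peak inside it (chr8:22704672-22705590) scored 71.64, a ratio of 0.292. Genome-wide, 5449 pairs joined a DMSO peak to exactly 1 MC2580 peak and the reverse. The median of their ratios was 0.638, and the 5th and 95th percentiles were 0.185 and 1.67. Both EGR3 ratios lay within this range, and that at -22.4 kb was close to the median.

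The remaining EGR3 peaks were found in DMSO without overlap. They scored 77.17 at chr8:22713472-22714446 and 96.81 at chr8:22775989-22776990. The former lay 0.8 kb from the stronger MC2580 peak, so its count as unshared depended on the overlap rule. No EGR3 peak was within 3 kb of a TSS, and the nearest was 10906 bp away.

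EGR1 (ENSG00000120738, chr5:138465479-138469303, plus strand), the founding member of the family, had no peak within 100 kb. Its promoter held 2 CArG boxes, against at least 1 in 1.30% of 34943 promoters, and 1 of the 3 EGR2 promoters, that of the canonical TSS printed above, held 1. The nearest peaks of EGR1 lay 185 kb downstream in CTNNA1, which encodes alpha-catenin, and overlapped each other, with scores of 395.69 in DMSO and 125.42 in MC2580. EGR4 (ENSG00000135625, chr2:73290929-73293701, minus strand), an EGR factor studied mainly in brain and germ cells, had a single MC2580 peak of 52.15 at chr2:73254427-73255116, 38.8 kb downstream over an exon of FBXO41. The nearest coding TSS to this peak was that of CCT7, so that its link to EGR4 was one of distance only.

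The corepressor genes differed in the number of peaks. NAB1 (ENSG00000138386, chr2:190646746-190692766, plus strand) had 1 DMSO peak of 51.6 at chr2:190554389-190554984, near the lower limit of the list and at -94.4 kb, in NEMP2-DT and nearest to the TSS of NEMP2. Of the bases at its centre, 99.7% had at least 10 similar copies on chromosome 20. Promoters of 5 of the 6 genes were searched, those of EGR3 not being in the table used. Of these 5 genes NAB1 alone had the EGR word, in 2 of its 3 promoters, which overlap and held it at the same place, against 0.796% of all promoters. These 2 promoters had a GC content of 77.0% and 82.0%. The share of all promoters was not limited to those of like GC content. No peak lay near the NAB1 promoters.

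NAB2 (ENSG00000166886, chr12:57089043-57095476, plus strand) had most of the peaks, 10 in DMSO and 3 in MC2580. At least as many were found in 6.81% and 12.5% of protein-coding genes. The peak nearest to its TSS, at chr12:57089533-57090336, scored 66.67 in DMSO and began 419 bp downstream of the canonical TSS, within the gene and touching no exon. It was the only peak of the window nearest to the NAB2 TSS, and the nearest MC2580 peak was 21.6 kb away. The other 12 peaks belonged by position to 6 neighbours: GPR182, TAC3, MYO1A, NEMP1, STAT6 and LRP1.

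The strongest of them lay over a TSS of STAT6, the transcription factor of IL-4 signalling, whose gene adjoins NAB2. The DMSO peak at chr12:57109988-57112767 was 2780 bp wide and scored 663.59. An MC2580 peak of 590 bp within it (chr12:57111915-57112504), whose centre sequence is printed above, scored 54.56. The ratio of 0.0822 was low among the pairs, with 0.422% of the 5449 at or below it. The peak in STAT6 thus stayed in both lists by the overlap rule although its MC2580 score was near the threshold. Other STAT6 peaks were seen in DMSO alone, 1 of 78.84 and 1 of 56.19 in sequence shared with LRP1. LRP1, an endocytic receptor, had further DMSO peaks of 253.38, 54.31 and 68.68. On the upstream side DMSO peaks scored 112.64 in MYO1A, 55.65 in GPR182 and 52.73 in NEMP1. MC2580 peaks without overlap scored 75.89 in TAC3 and 50.55 in MYO1A, the latter 3.6 kb from the DMSO peak of that gene.

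**Figure D3:**
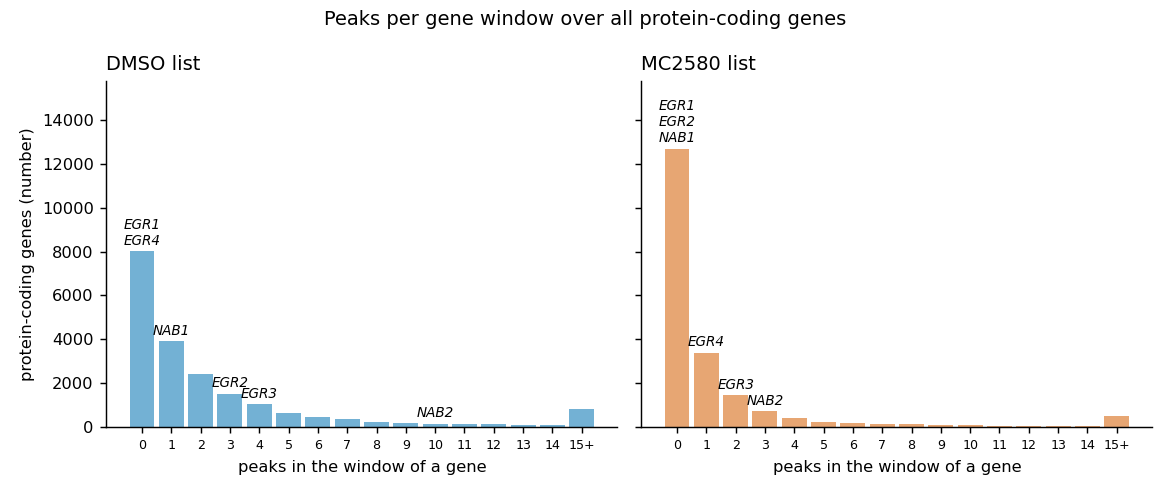
Number of protein-coding genes (vertical axis) by the number of peaks in their window (horizontal axis, 15 or more in the last bar), for the DMSO (left) and MC2580 (right) lists. Names mark the bars that hold the 6 genes. In DMSO, EGR1 and EGR4 are among 8014 genes without a peak, while NAB2 with 10 lies far to the right.

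Across the windows, an overlap with the MC2580 list was found for 3 of 18 DMSO peaks, which is 16.7% (Wilson 95% interval 5.84 to 39.2), where the whole list had 33.6%. The unshared peaks included the EGR2 peak by which the genes were chosen, and without it 3 of 17 were shared, or 17.6% (6.19 to 41.0). The shared peaks were 2 EGR3 peaks and the STAT6 peak. In the other direction 3 of 6 MC2580 peaks were shared (interval from 18.8% to 81.2%), against 58.0% of the list. Intervals include the share of the list, but they cover counting error only and treat the peaks as independent. Of the 18 DMSO peaks, 10 lay in the NAB2 window. The genes were chosen by a peak near EGR2, whose 3 DMSO peaks were all unshared, so the shares are a description only. None of the 12 DMSO peaks with a score under 100 overlapped, where 16.4% of such peaks of the list did. Of the 6 with higher scores 3 overlapped, where 55.2% of the list did. In the DMSO list the shared peaks of the windows were thus among the stronger ones, whereas 2 of the 3 shared MC2580 peaks scored under 100. The 3 strong peaks without an overlap were those of 1407.24 near EGR2, 253.38 in LRP1 and 112.64 in MYO1A. Both lists used the same EV library as background.

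Of the 7 words, the EGR word and the CArG box were in none of the 24 centres, and they occurred at 0.199% and 1.73% of DMSO centres overall. The C/EBP word was the most frequent, at 5 of 18 DMSO centres and 3 of 6 MC2580 centres, where 19.2% and 15.6% of the lists held it. It was found at the EGR3 peak of -11.6 kb in both lists, whose peaks overlap there, so that the centres are largely the same sequence. The AP-1 word was at 2 DMSO and 2 MC2580 centres (13.2% and 10.9% of the lists). In both lists the strongest EGR3 peak held it, again in largely the same sequence. PU.1 words were at 2 DMSO centres (4.02% of the list), in PEBP4 near EGR3 and in STAT6. The RUNX word was at 1, the EGR3 peak of -83.0 kb, and the GFI1 word at 1, in GPR182 (6.11% and 0.969%). No word was found at 9 of the 18 DMSO centres, the 3 of EGR2 included. These matches describe letters and not bound factors. Only the words as written were searched, so that near variants of a site were not counted.

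Genes that work with EGR and NAB proteins were examined in the same way. They were listed with earlier results of these data known, and longer genes had larger windows. Of 22 listed genes, 21 had a DMSO and 15 an MC2580 peak in the window, against 60.0% and 36.6% of all protein-coding genes. Within 3 kb of a TSS 9 had a DMSO peak and 4 an MC2580 peak, against 16.1% and 7.87% of all genes, and all 4 had both. Of the 6 upstream regulators, including SRF, ELK1 and ELK4, only ELK3 had such a peak, at a TSS internal to the gene, with 177.27 in DMSO and 72.39 in MC2580. Of the 9 immediate early genes, 5 had a DMSO peak near a TSS. IER2 had the highest score, 523.3, followed by IER3 (256.97), the phosphatase gene DUSP1 (122.59), FOS (104.13) and the nuclear receptor gene NR4A1 (89.11). Among these IER3 alone had an MC2580 peak there, of 69.94. The DMSO peak centres of IER2 and NR4A1 lay at 5232 and -25523 bp from the canonical TSS, so these peaks were near another TSS of the gene.

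Among the 4 partners or factors of the same site, only WT1 had a promoter peak, of 328.69 in DMSO and 94.78 in MC2580, and CHD3 had no peak in its window. Of the 3 myeloid targets, GFI1, whose product restrains macrophage genes and recruits LSD1, had 417.8 in DMSO and 71.3 in MC2580 at its promoter. CSF1R, the receptor that drives macrophage growth, had a DMSO peak of 208.9 near a TSS internal to the gene and no MC2580 peak within 3 kb of a TSS, although its window held 3 MC2580 peaks of up to 355.55 and a DMSO peak of 636.71. In comparison, the peaks near a TSS of EGR2 (56.63) and NAB2 (66.67) had lower scores than the highest such peak of each of these 9 genes. That peak was not always at the canonical TSS.

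**Figure D4:**
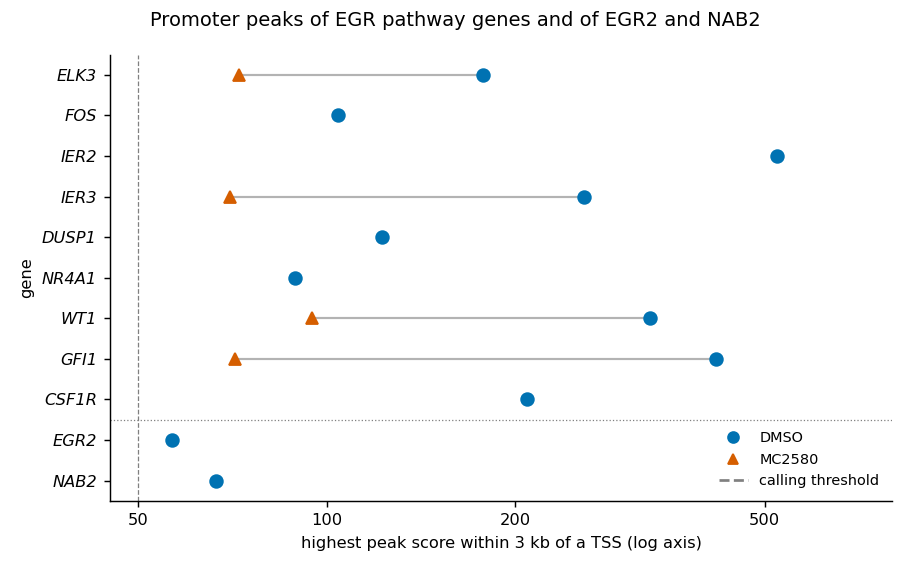
Highest peak score within 3 kb of a TSS (log axis) for the 9 listed pathway genes with such a peak and, below the dotted line, for EGR2 and NAB2. Circles are DMSO and triangles MC2580, joined where a gene has both. EGR2 at 56.63 and NAB2 at 66.67 are the lowest circles, and 4 genes have a triangle.

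The window set which peaks were counted. Just inside its edge lay the DMSO peaks of 55.65 in GPR182 and of 51.6 near NAB1, both 91.8 kb from the gene. Just outside lay an MC2580 peak of 50.2 in LRP1, 100.2 kb from NAB2, and a DMSO peak of 62.75 in SHMT2 at 137 kb. None of these scored above 100. None of the 6 genes lay in a 1 Mb bin with 40 or more peaks of both lists together, and the bins of the genes held from 3 peaks at NAB1 to 19 at NAB2.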

How the data were processed

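The data were 2 peak lists from V5 ChIP-seq of NB4 cells, assigned to DMSO and MC2580 from the name of each list, with 0 columns left unmapped. The authors aligned reads to hg38 with Bowtie (version 4.8.2 per the labels), keeping unique matches with at most 2 mismatches. Peak calling was by MACS (p-value threshold 1e-05) against the respective input and the EV ChIP. The way these backgrounds were joined was not stated. Nothing was pooled. The score deposited by the authors is minus 10 times the log10 of the p-value of a peak. It grows with depth, which was unknown, and 116 DMSO peaks share the value 3100, so that scores do not give a firm ranking at the top and ratios between lists do not separate binding from depth.

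Gene spans, TSSs and exons were those of GENCODE version 44, without unplaced sequences. Windows were gene spans extended by 100 kb, so that longer genes had larger windows. Peaks overlapping by at least 1 bp were counted as shared. The genes named were the 6 members, the genes that hold their peaks or have the nearest coding TSS, listed pathway genes with a peak within 3 kb of a TSS, and the 3 genes nearest to EGR2 by the Euclidean distance of log10(highest score + 1) in both lists. Members and lists were chosen with earlier results of these data known. Words were searched in the 300 bp at peak centres and in RefSeq promoters (250 bases before to 50 after the TSS, 9 promoters of 5 members). BLAST searches used a word size of 12 and an E-value of at most 1e-10. The interval functions were tested on simulated data. With 1 library per condition no test was made. Alternatives were windows of 50 and 200 kb, a score of at least 100, other rules for overlap, peaks closer than 1 kb merged, TSS distances of 1 kb or to the canonical TSS, and the gene background outside dense bins. The tools were BLAST+ 2.17.0, pysam 0.24.0, matplotlib 3.10.9, scipy 1.17.1, pandas 2.3.3, numpy 2.4.6 and Python 3.11.15.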

Additional observations from a re-analysis of the deposited data

How the results depend on the processing

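Of 44 alternative values, 27 stayed within 1.5 times the main count, or within the interval of a share. With windows of 200 kb there were 10 MC2580 peaks, and 5 DMSO and 5 MC2580 peaks overlapped the other list. With a score of at least 100 in both lists there were 6 DMSO peaks and 1 MC2580 peak, 1 DMSO and 1 MC2580 peak overlapped, 1 gene had an MC2580 peak, and 0 genes had a DMSO peak near a TSS. Without NAB2, an alternative chosen after seeing the data, 8 DMSO and 3 MC2580 peaks were left. Leaving out the strongest EGR2 peak, also chosen after seeing the data, gave 17 DMSO peaks, 3 of them shared. The share of all genes with a DMSO peak was 57.1% outside dense bins, 47.9% with windows of 50 kb and 73.0% with 200 kb, and that with an MC2580 peak 32.1%, 27.3% and 48.7%. These values follow from how many genes, peaks or bases each alternative takes in. With 1 library per condition, no replicate could be left out, and differences between the lists cannot be told apart from differences between libraries or in depth. No paired analysis was possible because each condition had 1 library and no test was made.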

Other observations

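Beyond the windows, the peaks nearest to genes with few or no peaks lay far away. The nearest DMSO peak upstream of EGR1 scored 89.08 at 223 kb, and the nearest MC2580 peak upstream scored 192.32 at 3331 kb, in PITX1-AS1. On the far side of EGR2, a DMSO peak of 117.31 and an MC2580 peak of 102.75 overlapped each other 249 kb upstream. For NAB1, the nearest DMSO peak upstream of the window scored 195.4 in MFSD6, 236 kb away, and did not overlap an MC2580 peak.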
